A study of Mus musculus with 6 samples.

Results

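A group of genes of lipoprotein and cholesterol handling that respond to, encode or work beside the liver X receptors was followed in microglia with and without intact Bhlhe41. They were Apoe, Apoc1, Abca1, Abcg1, Nr1h2, Nr1h3, Mylip, Lpl, Lpcat3 and Soat1, chosen by name, and every array probe whose transcript accession maps to them was taken, which gave 20 probes for the 10 genes out of 56601 probes tested and 23462 genes named. The data are 6 1-colour expression arrays of microglia from the brains of young adult mice, 3 samples of B41HET and 3 of B41KO. B41HET samples carry the Bhlhe41 dTomato-Cre allele on 1 chromosome and served as controls (Ctrl), and B41KO samples carry it on both, so that no sample is free of the allele. In this knock-in, dTomato and Cre are made from the Bhlhe41 promoter and translation stops before Bhlhe41, a basic helix-loop-helix repressor that binds E-boxes. The mice were on a C57BL/6 background, the cells were enriched on Percoll and sorted as live CD45low CD11b+ Cx3cr1+ cells, and each sample was a pool of many mice according to the methods. The p-values below therefore measure the spread between pooled samples, which may be technical, and not that between single mice.

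Liver X receptors are nuclear receptors that sense oxysterols, sit on DNA as partners of retinoid X receptors and switch from repression by corepressor complexes to activation when ligand binds. Their targets carry cholesterol out of the cell and onto lipoproteins, and Apoe is the main apolipoprotein made in the brain, secreted by astrocytes and by microglia, where it rises in the state seen around plaques and in degenerating tissue. Lipoprotein lipase, which the same microglial state turns on, frees fatty acids from lipoprotein triglyceride.

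Values are log2 signals after quantile normalization over the 6 arrays, and a difference is B41KO minus B41HET on that scale. A probe was called when its p from limma was 0.05 or less after Benjamini-Hochberg adjustment over every probe tested and its difference was at least 0.5 in size. On all 6 arrays, each of the 20 probes read well above background. Of all probes on the array 5.07% were called, 3.34% lower and 1.72% higher in B41KO. That is 1892 probes lower and 975 higher, and 1534 and 1297 when arrays were shifted to a common 75th percentile in place of quantile normalization, which changed none of the calls among the 20 probes. The cells had the expression of microglia: all 12 homeostatic microglia markers, among them Tmem119, P2ry12 and Sall1, were detected above background in every sample, and the median log2 signal of the list lay between 13.91 and 14.23 in B41HET and between 13.94 and 14.10 in B41KO. Across arrays, 70.0% to 75.5% of probes were well above background, and no spot was saturated. The brightest probe of Bhlhe41 differed by 0.38 (adjusted p = 0.330) and was not called, and where its probes lie in the transcript relative to the cassette was not looked at, so that they give no check of the labels.

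Apoe was lower in B41KO on both of its probes, by 0.68 and 0.94 on the log2 scale, and Lpcat3 was lower by 0.51 on 1 of its 2 probes. These 3 probes were the called ones among the 20, and no probe of the 10 genes was called higher. The other 17 probes, including every probe of Abca1, Abcg1, Mylip and the receptor genes Nr1h2 and Nr1h3, had differences between −0.40 and 0.29 that did not pass. Taking the brightest probe of each gene, 2 of the 10 genes were called, both lower, where 5.45% of all named genes were called, 4.01% lower and 1.44% higher. The median difference of the 10 genes was −0.08, and that of all named genes was 0.01.

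The promoter windows that bear on the comparison are those of Apoe and Lpcat3, the called genes, and of Abca1, the member whose window holds an E-box. They come from RefSeq on GRCm38.p6 and run from 250 bases before to 50 bases after a transcription start, written 5′ to 3′ on the strand of the gene. Capitals mark the E-box CACGTG, which reads the same on both strands. The Apoe window is chr7:19699139-19699438 on the minus strand, at the start farthest upstream among its 3 windows. The Lpcat3 window is chr6:124662854-124663153 on the plus strand, and the Abca1 window is chr4:53159846-53160145 on the minus strand.
Apoe: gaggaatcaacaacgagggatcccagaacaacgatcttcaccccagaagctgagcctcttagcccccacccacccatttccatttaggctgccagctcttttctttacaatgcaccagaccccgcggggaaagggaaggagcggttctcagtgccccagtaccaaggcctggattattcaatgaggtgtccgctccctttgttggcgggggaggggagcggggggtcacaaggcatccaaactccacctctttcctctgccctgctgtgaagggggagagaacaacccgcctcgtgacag
Lpcat3: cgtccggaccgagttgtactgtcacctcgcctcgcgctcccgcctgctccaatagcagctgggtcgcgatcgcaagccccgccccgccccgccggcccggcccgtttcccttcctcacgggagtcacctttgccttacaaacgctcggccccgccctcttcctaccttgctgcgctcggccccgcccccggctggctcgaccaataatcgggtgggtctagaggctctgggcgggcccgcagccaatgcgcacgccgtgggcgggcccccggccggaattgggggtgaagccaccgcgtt
Abca1: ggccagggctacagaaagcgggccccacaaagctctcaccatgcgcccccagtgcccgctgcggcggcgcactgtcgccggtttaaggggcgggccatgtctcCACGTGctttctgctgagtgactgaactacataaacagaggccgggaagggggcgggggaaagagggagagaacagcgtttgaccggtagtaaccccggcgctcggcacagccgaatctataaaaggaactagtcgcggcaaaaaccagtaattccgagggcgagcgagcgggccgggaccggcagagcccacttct
Of the 10 genes, 7 had a window in the table and 10 windows were searched in all. The E-box was found in 1 of them, in Abca1, beginning 147 bases before the start. It is present in 7.15% of all 32851 windows of this length. The direct repeat by which liver X receptors are known to bind, taken strictly as AGGTCA, any 4 bases and AGGTCA again, on either strand, was in none of the 10 windows and in 0.0152% of all windows. The windows of Apoc1, Abcg1 and Lpl were not analysed here. A window without the letters searched says nothing of sites farther away.

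Among the apolipoproteins, Apoe, which carries lipid between cells and is a ligand of lipoprotein receptors, was measured by probes A_51_P171999 and A_55_P2736230. On the brighter of them, A_51_P171999, the log2 signal was 14.84, 14.75 and 14.69 in the B41HET samples and 14.04, 14.07 and 14.12 in the B41KO samples. The genotypes did not overlap, and the lowest B41HET sample stood 0.57 above the highest B41KO sample, while the SD within a genotype was 0.08 in B41HET and 0.04 in B41KO. The difference was −0.68 (SE 0.07, 95% interval −0.87 to −0.50, limma adjusted p = 0.0103), a signal 37.7% lower. On A_55_P2736230 the log2 signal was 13.25, 13.03 and 13.31 in B41HET and 12.19, 12.46 and 12.13 in B41KO. All B41KO samples again lay below all B41HET samples, here with a wider spread in each genotype. The difference was −0.94 (SE 0.13, 95% interval −1.25 to −0.62, adjusted p = 0.0177), or 47.8% lower. The mean of both probes was 0.81 lower (adjusted p = 0.0100). Under the exact permutation test, which with 3 samples against 3 can give no p below 0.1, each Apoe probe reached that smallest value.

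Apoc1, an apolipoprotein that hinders the uptake of lipoproteins by their receptors and is encoded next to Apoe, was not called. Its log2 signal was 6.98, 7.02 and 7.24 in B41HET and 7.18, 7.33 and 7.19 in B41KO, so that the genotypes overlapped. The difference was 0.15 (SE 0.10, adjusted p = 0.433), with a 95% interval of −0.09 to 0.40. Apoc1 stands in a cluster with Apoe, Apoc4 and Apoc2 on chromosome 7, with Apoe at its end. Apoc4 differed by −0.22 (adjusted p = 0.414), and the brighter probe of Apoc2, the cofactor of lipoprotein lipase, by −0.38 (adjusted p = 0.0690), neither of them called. The dimmer probe of Apoc2 was called, at −1.82 (adjusted p = 0.00185), so that both probes of Apoc2 lay lower in B41KO and differed in the size of the change.

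**Figure D1:**
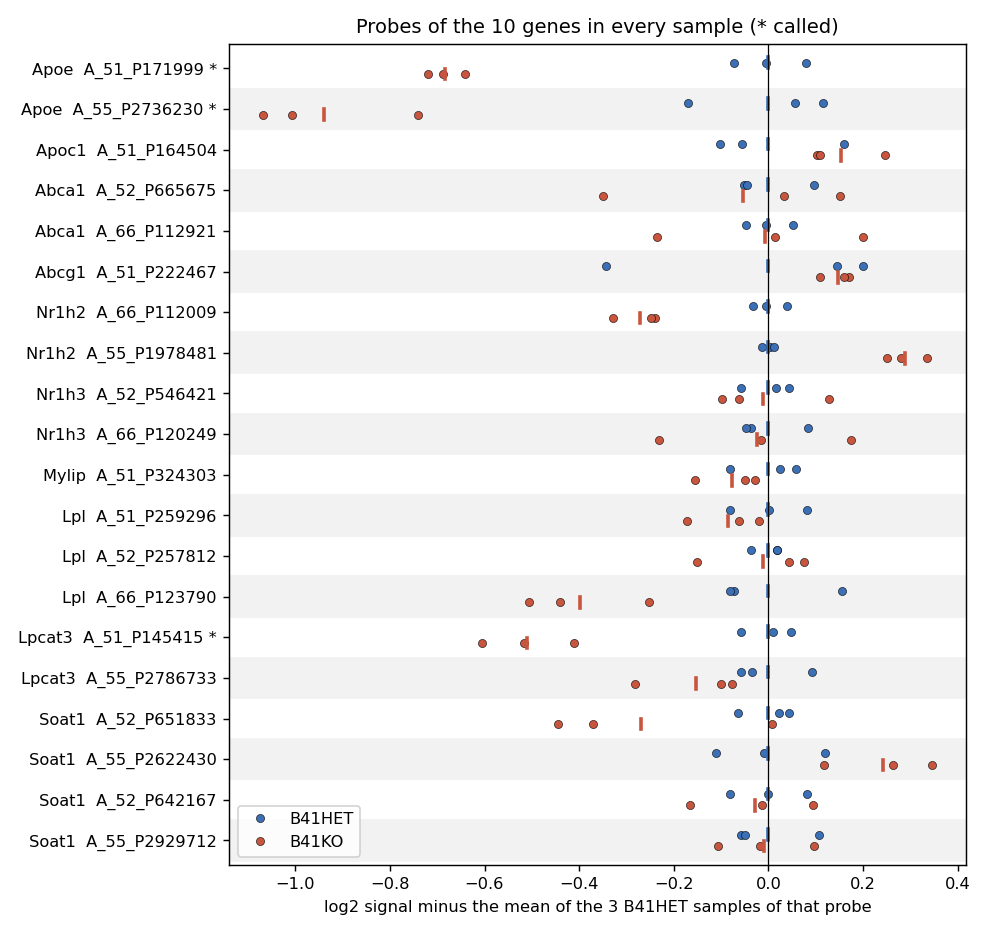
Log2 signal of each of the 20 probes in every sample, minus the mean of the 3 B41HET samples of that probe. Points are samples, short bars are genotype means, and stars mark called probes. The B41KO points of both Apoe probes lie clear of the B41HET points to the left, those of the 2 Nr1h2 probes lie on opposite sides of 0, and most other rows overlap.

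Non-overlap between the genotypes was common on these arrays, being found for 29.7% of all probes, and 7 of the 20 probes showed it, 6 lower and 1 higher in B41KO. Besides the 3 called probes these were the 2 probes of Nr1h2, 1 of Lpl and the other probe of Lpcat3.

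Lpcat3 encodes the lysophospholipid acyltransferase that puts polyunsaturated chains into membrane phospholipid and is a direct liver X receptor target. Probe A_51_P145415 gave 11.34, 11.27 and 11.38 in B41HET and 10.81, 10.92 and 10.72 in B41KO. The groups stood 0.35 apart at their nearest samples. The difference was −0.51 (SE 0.08, 95% interval −0.71 to −0.31, adjusted p = 0.0265), which is 29.8% lower and only just past the fold threshold. The second probe, A_55_P2786733, gave 9.10, 8.97 and 8.95 against 8.93, 8.90 and 8.72, a difference of −0.15 (adjusted p = 0.387) with 0.02 between the nearest samples. Averaged over its probes Lpcat3 differed by −0.33 and was not called (adjusted p = 0.0788). Of the 6 other lysophospholipid acyltransferases, Lpcat1, Lpcat2, Lpcat4, Mboat1, Mboat2 and Mboat7, none was called, with differences from −0.29 to 0.13.

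The cholesterol exporters, the best known targets of these receptors, did not pass. Abca1, which loads cholesterol and phospholipid onto lipid-poor apolipoproteins, gave 9.75, 9.60 and 9.61 in B41HET and 9.80, 9.30 and 9.68 in B41KO on probe A_52_P665675. On A_66_P112921 it gave 8.65, 8.55 and 8.59 against 8.79, 8.36 and 8.61. The order of the B41KO samples was the same on both probes, replicate 2 being the lowest and replicate 1 the highest of all 6 samples, and the differences were −0.05 (95% interval −0.42 to 0.31, adjusted p = 0.870) and −0.01 (−0.32 to 0.30, adjusted p = 0.983). Abcg1, which passes cholesterol on to high density particles, gave 10.48, 10.43 and 9.94 in B41HET and 10.39, 10.45 and 10.44 in B41KO. Its difference of 0.15 (95% interval −0.24 to 0.54, adjusted p = 0.647) came with 1 low B41HET sample, and without that sample, B41HET replicate 3, it was −0.03.

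Mylip, also called Idol, is the ubiquitin ligase that liver X receptors induce to limit lipoprotein uptake. It ran from 10.95 to 11.09 in B41HET and from 10.88 to 11.01 in B41KO, a difference of −0.08 with a 95% interval of −0.27 to 0.12 (adjusted p = 0.621).

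Neither receptor gene was called, and the probes of Nr1h2, which encodes the beta form, went opposite ways. Nr1h2 probe A_66_P112009 read 11.06, 11.13 and 11.09 in B41HET and 10.85, 10.76 and 10.84 in B41KO, a difference of −0.27 (SE 0.07, 95% interval −0.44 to −0.10, adjusted p = 0.0782). Probe A_55_P1978481 read 10.01, 9.99 and 10.01 against 10.34, 10.28 and 10.25, a difference of 0.29 (SE 0.06, 95% interval 0.13 to 0.45, adjusted p = 0.0607). The genotypes did not overlap on either probe, B41KO lying below on the first and above on the second, and the mean of both probes differed by 0.01. The probes are annotated to different RefSeq transcripts of the gene, and where they lie in them was not looked at. The difference between their changes was 0.56, with an exact permutation p of 0.1, the smallest that 3 against 3 samples allow. For Nr1h3, the alpha form and the main one of macrophages, the differences were −0.01 (95% interval −0.23 to 0.21, adjusted p = 0.962) on A_52_P546421 and −0.02 (−0.32 to 0.28, adjusted p = 0.937) on A_66_P120249, and the genotypes overlapped on both. The first of these read 9.59, 9.52 and 9.62 in B41HET and 9.70, 9.48 and 9.52 in B41KO, and the second ranged from 4.57 to 4.98 in B41KO, around the 4.76 to 4.89 of B41HET.

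Lpl was read by 3 probes. Probes A_51_P259296 and A_52_P257812 differed by −0.08 (adjusted p = 0.608) and −0.01 (adjusted p = 0.960), with overlapping genotypes. The first read 6.12, 6.20 and 6.04 in B41HET and 6.06, 5.95 and 6.10 in B41KO, and the second read 5.30, 5.25 and 5.30 against 5.32, 5.36 and 5.13. Their 95% intervals were −0.29 to 0.12 and −0.23 to 0.20. Probe A_66_P123790 gave 5.10, 5.33 and 5.09 in B41HET and 4.92, 4.73 and 4.67 in B41KO, without overlap, and its difference of −0.40 (SE 0.11, 95% interval −0.67 to −0.13, adjusted p = 0.0976) was not called. With normexp background correction it was −0.10 (adjusted p = 0.407). Of the 9 genes listed as regulators of the lipase, Apoc2 among them, none was called by the brightest probe, with Angptl4, an inhibitor of the enzyme, at −0.12 (adjusted p = 0.538) and Gpihbp1, its anchor on capillaries, at 0.10 (adjusted p = 0.654).

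Soat1, the enzyme that esterifies cholesterol for storage in lipid droplets, was read by 4 probes with differences of −0.27, 0.24, −0.03 and −0.01 from the brightest to the dimmest, at adjusted p between 0.225 and 0.965. On A_52_P651833, with the −0.27, the B41KO samples read 9.28, 8.90 and 8.83 against 9.31, 9.29 and 9.21 in B41HET, so that B41KO replicate 1 lay among the controls. On A_55_P2622430, with the 0.24, they read 8.25, 8.34 and 8.11 against 7.88, 8.11 and 7.98, and the 95% interval was −0.0048 to 0.49. The 2 remaining probes overlapped, with 95% intervals of −0.27 to 0.21 and −0.23 to 0.21. Soat1 and Nr1h2 were the 2 genes whose probes differed in sign.

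**Figure D2:**
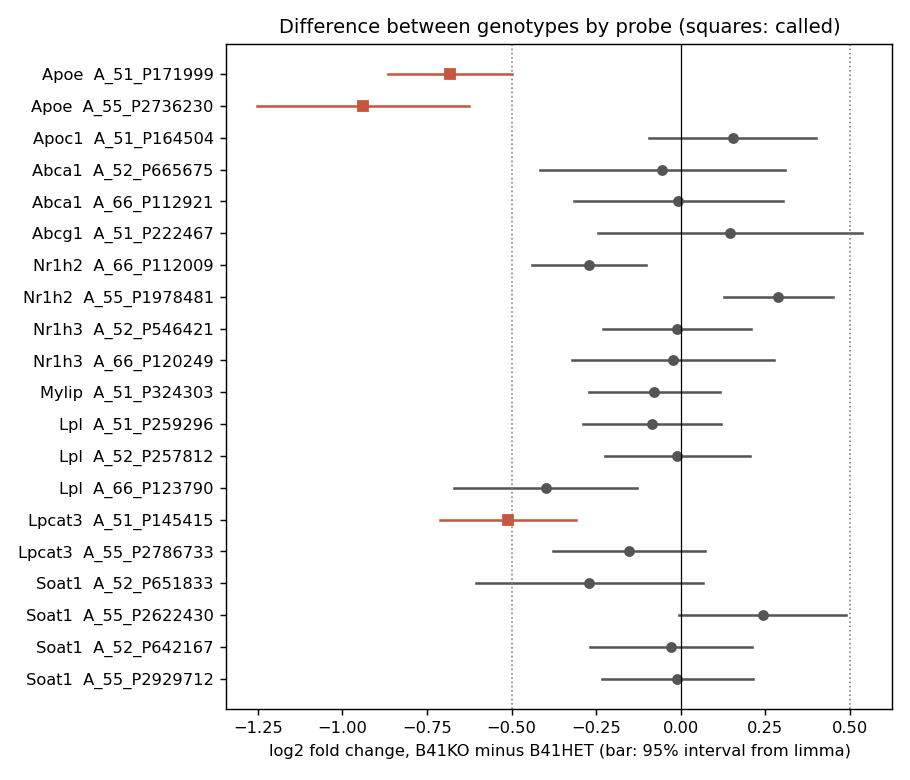
Difference between genotypes, B41KO minus B41HET on the log2 scale, for each of the 20 probes, with its 95% interval from limma. Red squares are called probes and dotted lines stand at a size of 0.5. The intervals of the 3 called probes lie wholly below 0, as do those of the uncalled probes Nr1h2 A_66_P112009 and Lpl A_66_P123790, and that of Nr1h2 A_55_P1978481 lies wholly above 0.

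Position on the slide differed between genotypes, as all B41HET arrays but only that of B41KO replicate 1 occupied row 1, with B41KO replicates 2 and 3 in row 2, so the members were also compared within row 1, where B41KO replicate 1 stands alone. There the Apoe probes differed by −0.72 and −1.01 and Lpcat3 A_51_P145415 by −0.52, as large as over all samples. The Abca1 probes differed by 0.15 and 0.20 within the row. With the slide row in the model, which rests on the same contrast, the called probes had adjusted p of 0.0844, 0.114 and 0.169. Leaving out 1 sample at a time, the difference of Apoe A_51_P171999 stayed between −0.72 and −0.64 and its call was lost without B41HET replicate 2 (adjusted p = 0.0560). Apoe A_55_P2736230 stayed between −1.04 and −0.87 and was called only without B41KO replicate 2 (adjusted p = 0.0376 there, up to 0.0702 otherwise). Lpcat3 A_51_P145415 stayed between −0.56 and −0.46 and was called in none of the 6 (adjusted p 0.0557 to 0.0891).

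**Figure D3:**
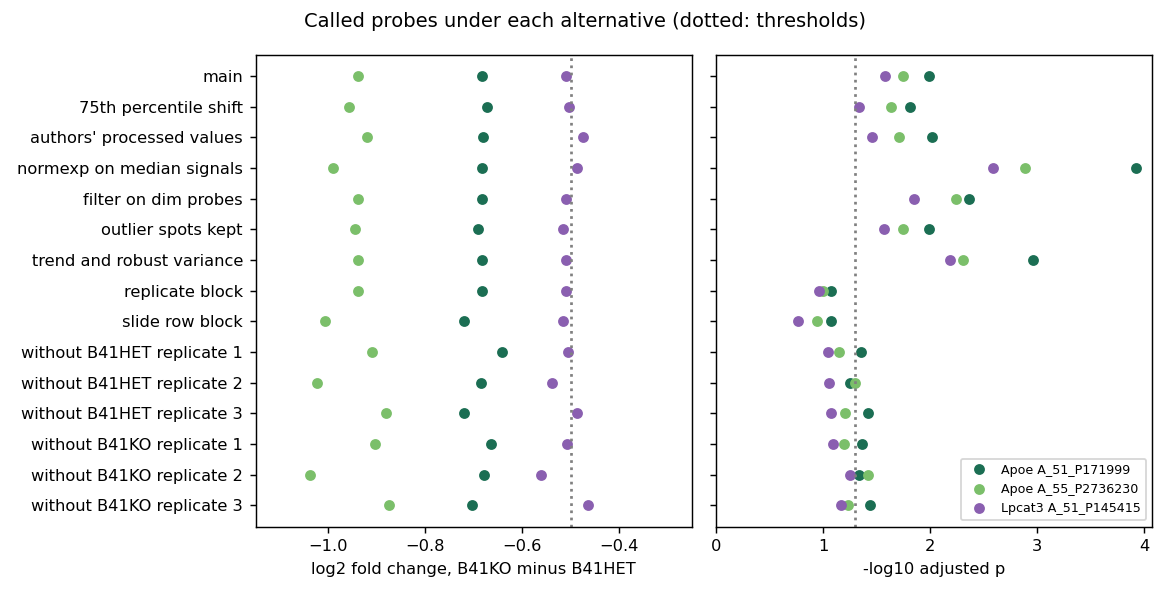
The 3 called probes under the main setting and each of 14 other settings, with the log2 difference on the left and −log10 of the adjusted p on the right, where dotted lines stand at the thresholds of −0.5 and 0.05. The differences hold their size in every setting, and for all 3 probes the adjusted p falls short of the threshold under both blocks.

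In sorted cells measured in bulk, fewer cells of a type and less RNA per cell cannot be told apart, and markers of other myeloid cells moved with genotype. Markers were counted by their brightest probe. Of 12 border macrophage markers, all 12 were lower in B41KO and 6 were called, with a median difference of −1.06. Their summed linear signal was 2656 to 2860 in B41HET and 1818 to 1972 in B41KO, and Lyve1 and Mrc1, which define these cells, were not well above background in any B41KO sample. Of 12 monocyte and neutrophil markers, 7 were called lower, with a median of −1.89 and summed signals of 23457 to 26272 against 4032 to 4382. The other 5 were not called. Among them Mpo (0.39) and Vcan (0.20) lay higher in B41KO without overlap, and Elane (−0.04) and Ccr2 (−0.30) overlapped. Homeostatic microglia markers had a median of −0.05 with 1 of 12 called, Fcrls at −0.76, and summed signals of 180521 to 199500 against 176665 to 188595. Astrocytes are the other large source of Apoe in brain, and of 10 astrocyte markers none was called by the brightest probe, while 1 other probe of Aqp4 was called higher, their summed signal being 2120 to 2186 in B41HET and 2288 to 2509 in B41KO. Among the remaining lists 2 of 10 endothelial markers, Ly6c1 and Pecam1, were called lower. The other 8 were not called, and the median of that list was −0.07. None of 10 neuron markers was called. Neutrophil transcripts were read in the cells sorted as CD45low CD11b+ Cx3cr1+. The mean log2 signal of Ltf was 12.88 in B41HET and 9.71 in B41KO, and that of Ngp was 12.66 and 9.53. The part of neutrophils, monocytes and border macrophages in the Apoe difference was not tested.

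**Figure D4:**
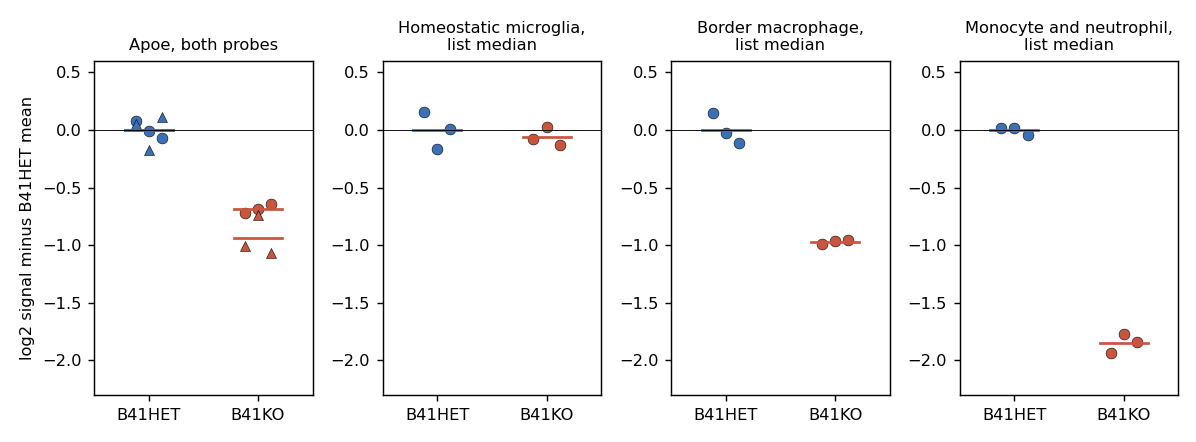
Log2 signal minus the B41HET mean in every sample, for the Apoe probes (circles A_51_P171999, triangles A_55_P2736230) and for the median over 3 lists of 12 marker genes, with bars at the genotype means. Apoe and the list medians of border macrophage and of monocyte and neutrophil markers were lower in all B41KO samples. The median of homeostatic microglia markers overlapped between genotypes.

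The pathway around the 10 genes was covered by 9 lists with 94 other genes. By the brightest probe 7 of the 94 were called lower and 3 higher, 10.6% in all, and their median was −0.06. Over all named genes the shares were 4.01% lower and 1.44% higher, 5.45% in all, against which the count of each list is to be read. With the slide row in the model, where the difference rests on B41KO replicate 1 alone against the B41HET samples, 2 of these 10 genes kept their calls, Tbl1xr1 (adjusted p = 0.0445) and Lrp8 (adjusted p = 0.0487), and with the replicate number as a block none did. Of 16 other liver X receptor targets none was called in either direction by the brightest probe, Apoc2 being called on its dimmer probe as given above, and the median was 0.09. Srebf1, the target that drives fatty acid synthesis, differed by 0.06 (adjusted p = 0.815) and Scd2, a desaturase, by less than 0.01 in size, while Scd1 was in no sample well above background.

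Among 15 receptor partners and cofactors 4 were called, all lower, with a list median of −0.22. Tbl1xr1 (−0.99, adjusted p = 0.00318), Hdac3 (−0.81, adjusted p = 0.00793) and Tbl1x (−0.68, adjusted p = 0.0348) encode parts of the corepressor complex with Ncor1, and Nrip1 (−0.69, adjusted p = 0.0229) is a further corepressor. With the slide row in the model the adjusted p was 0.0761 for Hdac3 and 0.148 for Nrip1. Nrip1 has no other probe, and the other genes were not called on theirs. The other probes of Tbl1xr1 differed by 0.17 and 0.06, that of Hdac3 by 0.34 and that of Tbl1x by −0.09. The Tbl1x value leaves out B41KO replicate 1, whose spot carried an outlier flag, so that slide row and genotype cannot be told apart for this probe, and with such spots kept the difference turned to 0.16 (adjusted p = 0.926), as it did in the table of processed values (0.20). Ncor1 at −0.18 (adjusted p = 0.192) was not called. The retinoid X receptors that pair with Nr1h2 and Nr1h3 were not called, Rxra at 0.23 (adjusted p = 0.117) and Rxrb at −0.13 (adjusted p = 0.283).

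Among 14 other apolipoproteins 1 was called by the brightest probe, Clu, or apolipoprotein J, an abundant lipoprotein component of brain, which was higher by 0.54 (adjusted p = 0.0134), and the list median was 0.02. Of 7 enzymes that make or clear oxysterols, Cyp46a1, the cholesterol 24-hydroxylase known from neurons, was lower by 0.63 on the log2 scale (adjusted p = 0.0319). Of 11 lipoprotein receptors and uptake genes, Lrp8, a receptor for Apoe, was higher by 0.85 (adjusted p = 0.0271) on its brightest probe, and its other probes differed by −0.21 and, on the probe near background, 0.01. Lrp1 at 0.11 (adjusted p = 0.498) and Trem2, a lipid and Apoe sensor of microglia, at 0.21 (adjusted p = 0.286) were not called. Of 12 genes of intracellular cholesterol handling, Soat2, the second cholesterol esterifying enzyme, was higher by 0.64 (adjusted p = 0.0141) on its brighter probe and differed by −0.04 on the other. Among 9 factors that bind E-boxes, Tfe3 (−0.70, adjusted p = 0.0197) and Usf2 (−0.62, adjusted p = 0.0201) were called lower on their brightest probes and not on their other probe. Tfeb was called on 1 of its 3 probes, at −0.56 (adjusted p = 0.0174), with its brightest at −0.35 (adjusted p = 0.138), and Bhlhe40, the close relative of Bhlhe41, differed by 0.09 (adjusted p = 0.705). With the slide row in the model the adjusted p was 0.107 for Clu, 0.217 for Cyp46a1, 0.110 for Soat2, 0.151 for Tfe3 and 0.143 for Usf2. With normexp background correction Soat2 (0.36), Clu (0.39) and Cyp46a1 (−0.46) fell under the fold threshold, and the other 7 list genes kept their calls.

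**Figure D5:**
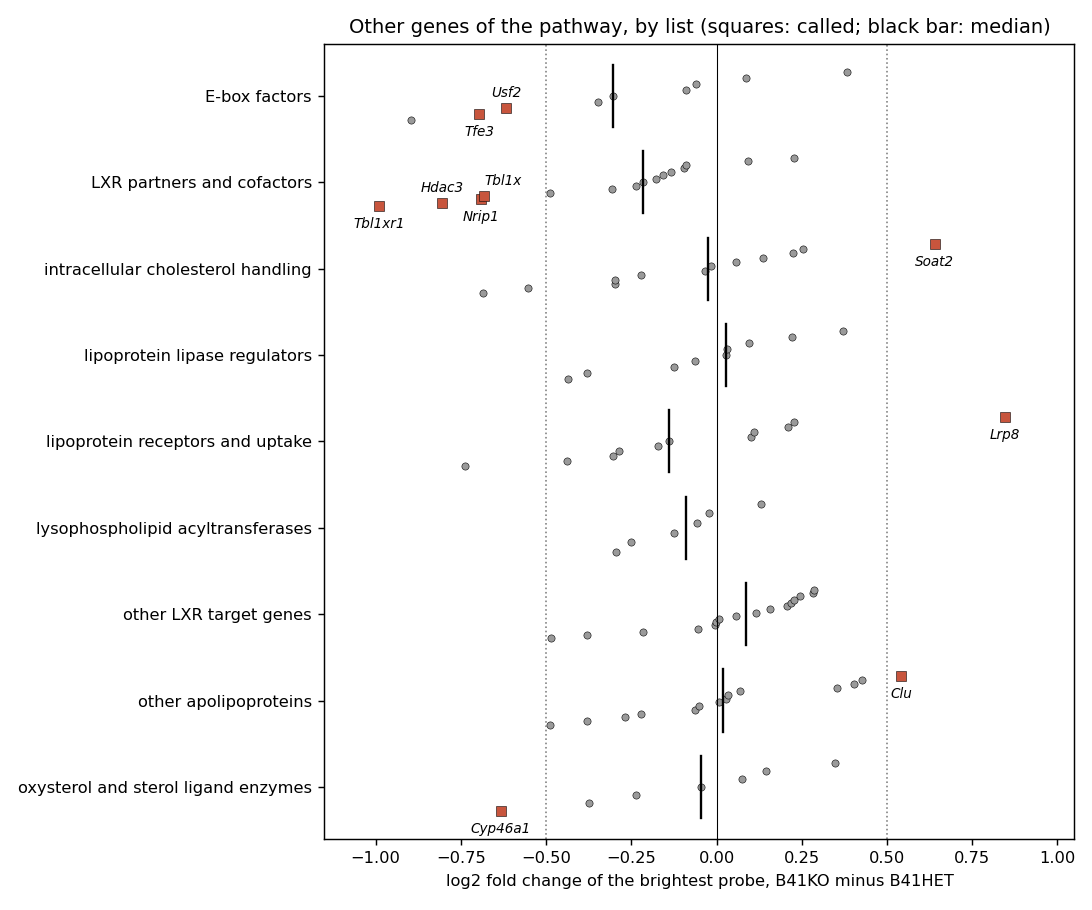
Log2 difference of the brightest probe, B41KO minus B41HET, for each gene of the 9 lists, with called genes as named red squares, list medians as black bars and dotted lines at a size of 0.5. A gene in several lists is drawn in each. The lists hold from 0 to 4 called genes each. No gene of the other liver X receptor targets is called on this probe, and the 4 called cofactors, of 15, lie to the left.

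Over the 6 samples, the genes whose pattern was nearest to that of Apoe A_51_P171999, among 17206 genes detected on every array, were Osm, Ccr6 and Slc25a37. The root mean square difference of their centred log2 signals from those of Apoe was 0.035 for Osm, 0.036 for Ccr6 and 0.037 for Slc25a37, and their own differences between genotypes were −0.66, −0.67 and −0.69.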

How the data were processed

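RNA of 6 pooled microglia samples, 3 B41HET and 3 B41KO, was hybridised to Agilent SurePrint G3 mouse arrays on 1 slide. The authors deposited scanner output from Feature Extraction 11.5.1.1, whose processed intensity has its background subtracted within each array but no normalization across arrays. They also deposited log2 values for all arrays, read as quantile normalized because its columns share their quantiles (largest difference 0.00085) and used as an alternative. Controls were dropped, as were outlier-flagged spots, of which an array had 95 to 136, and log2 intensities were quantile normalized and averaged per probe, and genotypes were compared with limma 3.58.1 in R 4.3.3, genotype alone in the model, over 56601 probes with values in at least 2 samples per genotype. Normalization, test and thresholds follow the methods of the study. The number of arrays limits the precision. Probes were named through their transcript accessions and RefSeq genes on GRCm38.p6 (33767 probes). The design of the array names another build, so coordinates are given for promoter windows alone. Where a gene has several probes the brightest stood for it, and all probes of the 10 genes are given. Beside the 10 genes and the genes called in the lists, partners of the members (Rxra, Rxrb, Srebf1, Scd1, Scd2, Lrp1, Trem2, Angptl4, Gpihbp1 and Soat2), Bhlhe41 and Bhlhe40 were named whatever their values, along with the 3 genes nearest in pattern to Apoe. The members and lists were chosen with earlier results of these data known. Some listed genes are not reported here by name. The fit was tested on simulated data. Data were read with version 1.17.8 of data.table and figures drawn with matplotlib. Alternatives were a shift to the 75th percentile, the deposited log2 table, normexp background correction with an offset of 50, removal of probes above background on fewer than 3 arrays, outlier spots retained, trended robust variance, blocking on the replicate number or on slide row, leaving out each sample, other fold thresholds and other choices of probe.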

Additional observations from a re-analysis of the deposited data

How the results depend on the processing

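Direction held for the called Apoe and Lpcat3 probes under all 14 alternatives. Over all probes, 2867 were called in the main fit, 1500 with normexp, 444 with the slide row as a block, 799 at a difference of 1 or more, and 792 to 1525 with a sample left out. Of the 10 genes' probes 3 were called in the main fit, 0 with the slide row or at a difference of 1 or more, and 0 to 2 with a sample left out. Of the genes 2 were called in the main fit, 1 with the deposited log2 table, 1 with normexp, 1 by the mean over probes, 0 with the slide row, 0 at a difference of 1 or more, and 0 to 1 with a sample left out. Lpcat3 A_51_P145415 missed the fold threshold in the deposited table (−0.48) and with normexp (−0.49). Fits with fewer samples or an added term have fewer degrees of freedom, and other causes were not tested. The replicate number as a block left 42 probes called, 0 of them among the 20 and 0 of the genes. The labels do not say whether the numbers pair the samples. Deviations of same-numbered samples correlated at 0.13, −0.01 and 0.17, and B41HET replicate 2 correlated best with another number. Such weak correlations over few samples cannot decide whether a pairing exists. The 75th percentile shift moved the median of all probes from 0.02 to 0.13.

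Some uncalled probes changed sign. With the 75th percentile shift Nr1h3 A_66_P120249 was 0.087, Lpl A_52_P257812 0.083 and Soat1 A_55_P2929712 0.044. In the deposited table Nr1h3 A_52_P546421 was 0.0060, and with normexp Lpl A_52_P257812 was 0.042 and Soat1 A_52_P642167 0.038. With the slide row the Abca1 probes were 0.15 and 0.20, Nr1h3 A_52_P546421 0.13, Lpl A_52_P257812 0.043 and Soat1 A_52_P651833 0.0070. With a sample left out, Abca1 A_52_P665675 ran from −0.16 to 0.093, Abca1 A_66_P112921 from −0.11 to 0.11, Abcg1 from −0.025 to 0.25, Nr1h3 A_52_P546421 from −0.080 to 0.033, Nr1h3 A_66_P120249 from −0.12 to 0.080, Lpl A_52_P257812 from −0.054 to 0.059, Soat1 A_52_P642167 from −0.090 to 0.040 and Soat1 A_55_P2929712 from −0.063 to 0.043.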

Other observations

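Scarb1, named here because of its values and known as the receptor for high density lipoprotein, was higher by 0.80 (adjusted p = 0.0347) on its dimmer probe, with the brighter at 0.23 (adjusted p = 0.123). Of the genes called in the lists, Tbl1xr1 and Hdac3 kept their calls in all 6 fits that left out a sample, Clu, Nrip1, Soat2 and Tfe3 in 2 of 6 each, Lrp8 in 1 of 6, and Cyp46a1 and Usf2 in none, and Tbl1x in none of the 4 that gave it a value.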
